A study of Homo sapiens with 37 samples.

Results

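The response of human lung fibroblasts to an activated oncogene was set against the response of the same fibroblasts to a DNA-damaging drug. The quantity described is a difference of 2 changes, both on the log2 scale and both taken from 1 fit: WI-38 cells given HRAS(G12v) over WI-38 cells given an empty vector (EV), called the HRAS response, minus WI-38 cells given doxorubicin (Dox+) over their control cells (Dox-), called the doxorubicin response. The 8 libraries, 2 in each group, were chosen by their titles from the 37 total-RNA libraries of the series, which cover fibroblasts and endothelial cells brought to senescence in several ways. A gene is called higher where the HRAS response exceeded the doxorubicin response, and lower where it was the smaller, at an adjusted p below 0.05 over the 29380 genes tested.

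All 8 libraries came from WI-38, a strain of fibroblasts from fetal human lung, at population doubling level 25. The HRAS(G12v) cells had received a lentivirus with the mutant HRAS at a multiplicity of infection of 10, and puromycin at 1 µg/mL. The EV cells had received the empty vector at the same multiplicity of infection and the same dose of puromycin. The Dox+ cells had received doxorubicin at 2 µg/mL for 24 h, and the Dox- cells are labelled as their control, with no virus and no puromycin named. The time of harvest and the promoter that drives the transgene are not given in the labels used here. Whether the 2 libraries of a group came from separate cultures is not said in the labels, and p-values therefore rest on a spread between samples that may be technical.

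HRAS is a small GTPase that passes growth factor signals to the RAF, MEK and ERK kinases, and the mutation holds it in its active form. In normal fibroblasts, sustained RAS activity is known to end in a lasting stop of division with abundant secretion of cytokines, chemokines and proteases, driven in large part by interleukin-1 and NF-kappaB. Doxorubicin traps topoisomerase on DNA and leaves breaks that activate p53, and damaged fibroblasts are also known to stop dividing and to secrete inflammatory factors. The 8 libraries are bulk RNA, in which fewer cells of a type and less RNA per cell cannot be told apart.

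The 8 libraries held 135085231 to 175530950 counts. Replicates of a group correlated across genes with a Pearson r of 0.978 to 0.983 on log2 CPM (counts scaled to a common library total), and varied by a common coefficient of 16.3%. In a principal component analysis the first component, with 54.4% of the variance, set the HRAS(G12v) libraries apart, and the second, with 28.1%, set the Dox+ libraries apart. Levels below are CPM scaled by TMM, a correction for differences in composition between libraries; they are not divided by gene length and are compared only within a gene.

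The transgene was read first. HRAS had 1940 and 1990 CPM in HRAS(G12v) libraries, 36.1 and 47 CPM in EV libraries, 29 and 30.8 CPM in Dox+ libraries and 36.7 and 39.7 CPM in Dox- libraries. Both HRAS(G12v) libraries lay far above the other 6, which lay between 29 and 47 CPM, and the counts do not separate mutant from endogenous HRAS. By edgeR's quasi-likelihood test the difference of the responses was 5.92 ± 0.21 (log2 ± SE; adjusted p = 9.02e-09), with an HRAS response of 5.57 and a doxorubicin response of -0.35 that did not pass. Among the other RAS genes, NRAS was called higher by 1.18, with a direct gap of -0.49 between HRAS(G12v) and Dox+ libraries that did not pass and a gap of -1.68 between EV and Dox- libraries. The NRAS call was lost with library totals (1.06) and with a repeat of the doxorubicin experiment (0.24).

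The fibroblast label was read through some of its markers. Of 17 fibroblast genes, 10 were called lower and 2 higher in the difference. DCN and PDGFRB, given below, were lowest in HRAS(G12v) libraries. VIM, the intermediate filament of mesenchymal cells, had 1970 and 2030 CPM in HRAS(G12v) libraries, 1390 and 1450 CPM in EV libraries, 963 and 918 CPM in Dox+ libraries and 1430 and 1470 CPM in Dox- libraries, and PDGFRA, a receptor of fibroblasts, had 135 and 120 CPM in HRAS(G12v) libraries, 274 and 268 CPM in EV libraries, 642 and 584 CPM in Dox+ libraries and 342 and 335 CPM in Dox- libraries. Both were read in all 8 libraries. Markers of other cell types were read as well. The summed level of 13 endothelial genes was 51.0 and 63.3 CPM in HRAS(G12v), 78.8 and 75.9 CPM in EV, 250 and 238 CPM in Dox+ and 112 and 121 CPM in Dox- libraries, most of it TEK outside the HRAS(G12v) libraries. The endothelial cadherin CDH5 averaged 0.669 CPM in HRAS(G12v), 0.089 in EV, 0.125 in Dox+ and 1.57 in Dox- libraries. KRT5 and KRT14 of epithelium and CD3E and SPI1 of leukocytes fell below the filter on low counts. The 11 epithelial genes summed to between 22.4 and 67.4 CPM and the 7 leukocyte genes to between 9.22 and 19.7 CPM in the 8 libraries. Their part in the differences was not tested.

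Of the 29380 genes, 6356 were called higher (21.6%) and 4105 lower (14%) in the difference of responses. Counts of called members of the lists below are to be read beside these shares. The HRAS response alone called 7957 genes higher (27.1%) and 5539 lower (18.9%), and the doxorubicin response 3992 higher (13.6%) and 3876 lower (13.2%). With library totals in place of TMM the split of each response turned towards lower calls, to 4742 higher and 7046 lower for HRAS(G12v) and to 2630 higher and 4933 lower for doxorubicin. In the difference itself, library totals gave 4599 genes called higher and 4024 lower. The number called also varied with which library was left out. The median difference over all genes was 0.07, and across genes the 2 responses, which share no library, correlated with a Pearson r of 0.293 and a Spearman rho of 0.196 (n = 29380 genes, which are not independent).

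Most called differences went with a call in 1 response and not with opposite calls. A response without a call is not shown to be absent, and a change given below as alone had no call in the other response. Of the 6356 genes called higher, 3375 (53.1%) rose with HRAS(G12v) without a call after doxorubicin, 1031 (16.2%) rose with HRAS(G12v) and fell after doxorubicin, and 915 (14.4%) fell after doxorubicin alone. A further 435 (6.84%) rose in both, more with HRAS(G12v), and 332 (5.22%) fell in both, less with HRAS(G12v). Of the 4105 genes called lower, 1976 (48.1%) fell with HRAS(G12v) alone, 763 (18.6%) fell with HRAS(G12v) and rose after doxorubicin, and 742 (18.1%) rose after doxorubicin alone. Among called genes the differences were larger on the lower side, with a median size of 1.72 on the log2 scale against 1.14 on the higher side. Of the called genes 3251 (79.2%) lower and 3886 (61.1%) higher ones reached 2-fold. The sides also differed in make-up, with 2558 of the 4105 lower and 5077 of the 6356 higher genes protein-coding. Its bearing on the sizes was not tested.

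**Figure D1:**
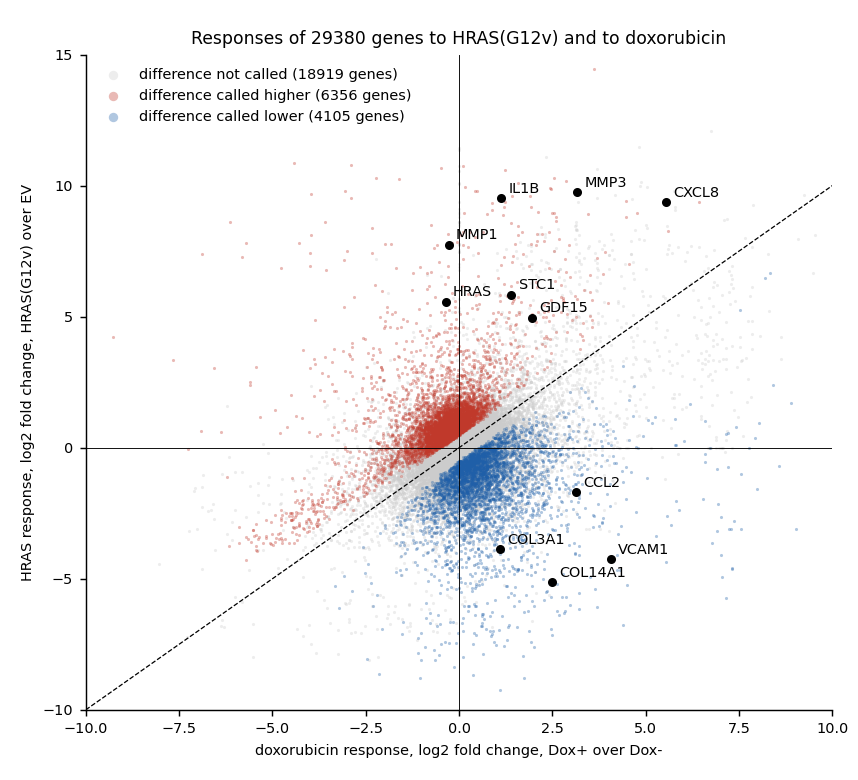
The HRAS response (vertical axis, log2 of HRAS(G12v) over EV) is plotted against the doxorubicin response (horizontal axis, log2 of Dox+ over Dox-) for 29380 genes, with the dashed line where both are equal. Red points are the 6356 genes called higher in the difference, blue points the 4105 called lower and grey points the rest; STC1, IL1B, MMP1, MMP3 and CXCL8 lie above the line and COL3A1, CCL2, VCAM1 and COL14A1 below it.

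The difference can also be read as the direct gap between the treated cells minus the gap between their controls. HRAS(G12v) against Dox+ libraries called 6996 genes higher (23.8%) and 6661 lower (22.7%), and EV against Dox- libraries called 4588 higher (15.6%) and 6427 lower (21.9%). Of the genes called higher in the difference, 4279 (67.3%) were also higher in HRAS(G12v) than in Dox+ libraries, and in 2390 (37.6%) the gap between the controls was larger than the gap between the treated cells. Of those called lower, 3025 (73.7%) were also lower in HRAS(G12v) than in Dox+ libraries, and in 1195 (29.1%) the control gap was the larger. EV and Dox- cells differ in virus, puromycin and any unrecorded feature of their experiments, which cannot be told apart, so the genes described in full are given in all 4 groups.

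Proteases that open the matrix were among the genes that most favoured HRAS(G12v). MMP3, or stromelysin, which cuts proteoglycans and activates other proteases, had 3810 and 3600 CPM in HRAS(G12v) libraries, 3.88 and 4.76 CPM in EV libraries, 85.5 and 96.2 CPM in Dox+ libraries and 10.4 and 9.73 CPM in Dox- libraries. Both HRAS(G12v) libraries stood above all others by a wide margin, and the Dox+ libraries stood above both control groups without reaching them. Its HRAS response of 9.74 ± 0.19 exceeded its doxorubicin response of 3.17 ± 0.14 by 6.57 ± 0.20 (edgeR adjusted p = 9.02e-09).

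MMP1, the interstitial collagenase that cleaves fibrillar collagen, had 6890 and 5440 CPM in HRAS(G12v) libraries, 35.6 and 22 CPM in EV libraries, 128 and 124 CPM in Dox+ libraries and 151 and 154 CPM in Dox- libraries. Here the HRAS(G12v) libraries were again highest, while Dox+ and Dox- libraries lay close together and EV libraries were lowest. The difference of MMP1 was 8.02 ± 0.30 (edgeR adjusted p = 1.37e-08), and the direct gap between HRAS(G12v) and Dox+ libraries was 5.62 ± 0.23. WTAPP1, a transcribed pseudogene, moved with it by 8.05, but its exons lie opposite those of MMP1 and MMP3, and the use of strand in counting is not stated, so its reads cannot be told from theirs. MMP10, a second stromelysin, had 47.3 and 44.6 CPM in HRAS(G12v) libraries, 0.257 and 0.156 CPM in EV libraries, 1.36 and 1.43 CPM in Dox+ libraries and 4.35 and 5.51 CPM in Dox- libraries. It rose with HRAS(G12v) and fell after doxorubicin, which gave a difference of 9.59 ± 0.30 (edgeR adjusted p = 9.02e-09). In the repeat experiment MMP10 rose after doxorubicin instead, by 4.08 (edgeR adjusted p = 1.16e-06), with 2.98 and 2.8 CPM in Dox+ Repeat and 0.102 and 0.238 CPM in Dox- Repeat libraries.

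Of 16 metalloproteases and their inhibitors tested, 8 were called higher and 5 lower, beside 21.6% and 14% of all genes, with a median difference of 0.57 against 0.07 for all genes; the median was 0.80 when genes with a whole group at 0 were set to a floor of 3 counts per library. The members called lower included MMP11, at -1.64, MMP19, at -1.81, and TIMP3, an inhibitor bound to the matrix, at -0.92. Their summed level was 13300 and 12000 CPM in HRAS(G12v), 1110 and 1370 CPM in EV, 1610 and 1590 CPM in Dox+ and 993 and 992 CPM in Dox- libraries. The sum was thus high in HRAS(G12v) libraries alone, with the Dox+ libraries slightly above both control groups.

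The plasminogen system, which generates plasmin at the cell surface, favoured HRAS(G12v) as well, with 7 of 9 genes called higher, 1 lower and a median difference of 1.37. SERPINB2, an inhibitor of plasminogen activators, had 306 and 238 CPM in HRAS(G12v) libraries, 0.77 and 0.306 CPM in EV libraries, 41.8 and 46.7 CPM in Dox+ libraries and 6 and 9.3 CPM in Dox- libraries. It was highest in HRAS(G12v), intermediate in Dox+, low in Dox- and near 0 in EV libraries, so that part of its difference of 6.41 ± 0.44 (edgeR adjusted p = 7.3e-07) lay between the controls, and it was 7.27 without the first EV library. PLAUR, the receptor that holds the activator urokinase on the cell, had 162 and 170 CPM in HRAS(G12v) libraries, 47.2 and 54.9 CPM in EV libraries, 27.9 and 27.7 CPM in Dox+ libraries and 49.7 and 53.2 CPM in Dox- libraries. Its controls overlapped, and it rose with HRAS(G12v) and fell after doxorubicin (2.59 ± 0.18, edgeR adjusted p = 7.39e-07). SERPINE2, which blocks thrombin and plasminogen activators, was the 1 member called lower, at -0.92 ± 0.16, having risen more after doxorubicin.

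STC1, stanniocalcin-1, a secreted glycoprotein, had 864 and 860 CPM in HRAS(G12v) libraries, 15.2 and 14.9 CPM in EV libraries, 80 and 86.2 CPM in Dox+ libraries and 32.7 and 30.3 CPM in Dox- libraries. The groups did not overlap: HRAS(G12v) libraries were highest, then Dox+, then Dox-, then EV. STC1 rose in both responses, by 5.84 ± 0.14 with HRAS(G12v) and 1.40 ± 0.12 after doxorubicin, and the difference was 4.44 ± 0.17 (edgeR adjusted p = 1.37e-08).

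Both forms of interleukin-1 were far higher in HRAS(G12v) libraries than in the other 6. IL1B, the secreted interleukin-1 beta, had 539 and 539 CPM in HRAS(G12v) libraries, 0.685 and 0.782 CPM in EV libraries, 3.03 and 2.91 CPM in Dox+ libraries and 0.185 and 2.53 CPM in Dox- libraries. Both HRAS(G12v) libraries were high and equal; the 2 Dox- libraries disagreed with each other, and 1 of them lay close to the Dox+ level. The difference of 8.40 ± 0.96 (edgeR adjusted p = 4.31e-05) was 9.29 without the first and 5.53 without the second Dox- library, and the doxorubicin response did not pass. IL1A, its cell-bound relative, had 59 and 40.6 CPM in HRAS(G12v) libraries, 0.217 and 0.178 CPM in EV libraries, 1.1 and 1.31 CPM in Dox+ libraries and 0.16 and 0.216 CPM in Dox- libraries. It rose in both responses, by 7.96 and 2.68, and its difference was 5.29 ± 0.39 (edgeR adjusted p = 1.35e-06).

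CSF2, or GM-CSF, a growth factor of myeloid cells, had 45.6 and 43.2 CPM in HRAS(G12v) libraries, 0.183 and 0.0568 CPM in EV libraries, 0.193 and 0.263 CPM in Dox+ libraries and 0.0616 and 0.0899 CPM in Dox- libraries. All libraries other than HRAS(G12v) were close to 0, and the difference of 6.87 ± 0.65 (edgeR adjusted p = 9.5e-06) was 8.0 without the first EV library and 6.26 without the second. Of 16 interleukins and colony-stimulating factors, 8 were called higher and 3 lower, with a median difference of 0.91, which was 0.58 without the first EV library. The members called lower were CSF1, the macrophage growth factor, at -1.77, IL15, a cytokine of T and NK cells, at -2.04, and TSLP, an epithelial-type alarm cytokine, at -1.52. The median response of the list was 3.11 to HRAS(G12v) and 1.20 to doxorubicin, with 10 of 16 called higher with HRAS(G12v) and 8 after doxorubicin. IL6, a cytokine of the acute phase named after its values were seen, rose in both, with 32.4 and 34.2 CPM in HRAS(G12v), 2.35 and 2.52 CPM in EV, 22.9 and 23.4 CPM in Dox+ and 2.41 and 2.50 CPM in Dox- libraries. Its treated groups were far above its controls, and the difference of IL6 was 0.53 ± 0.18 (edgeR adjusted p = 0.0392).

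**Figure D2:**
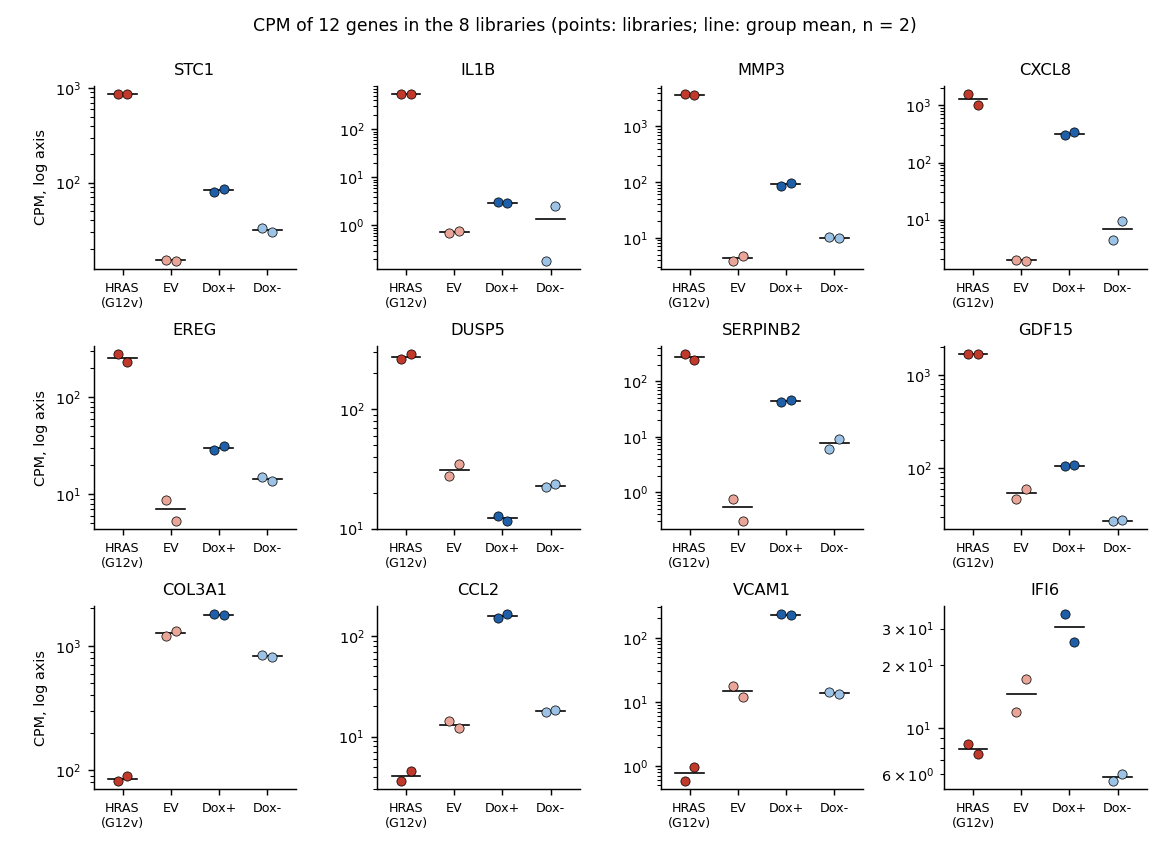
Levels (CPM, log axis) of 12 genes in each of the 8 libraries, grouped as HRAS(G12v), EV, Dox+ and Dox-. STC1, IL1B, MMP3, CXCL8, EREG, DUSP5, SERPINB2 and GDF15 are highest in HRAS(G12v) libraries, and COL3A1, CCL2, VCAM1 and IFI6 are highest in Dox+ libraries.

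Promoters of genes on either side are shown because AP-1 and NF-kappaB are known to act on secreted inflammatory genes. The genes shown were picked by hand and each holds a match, so they do not stand for their side. AP-1 was searched as TGANTCA and NF-kappaB as GGGA followed by any 2 bases, T, any base and CC, on both strands. The windows ran from 250 bases before to 50 bases after each RefSeq start (GRCh38.p14). None of the windows shown holds both searched patterns, so no matches overlap. A stretch that differs from the letters by 1 base, such as tggaatttcc in the CXCL8 window, is not counted. A window without a match is therefore not shown to lack a binding site. The 250 bases before the start are printed 5′ to 3′ on the gene's strand, with the matched letters in capitals, for 4 genes called higher, MMP10 (chr11:102780629-102780878, minus strand), CXCL8 (chr4:73740319-73740568, plus strand), SERPINB2 (chr18:63887455-63887704, plus strand) and PLAUR (chr19:43670170-43670419, minus strand), and for 1 called lower, VCAM1 (chr1:100719492-100719741, plus strand).
MMP10: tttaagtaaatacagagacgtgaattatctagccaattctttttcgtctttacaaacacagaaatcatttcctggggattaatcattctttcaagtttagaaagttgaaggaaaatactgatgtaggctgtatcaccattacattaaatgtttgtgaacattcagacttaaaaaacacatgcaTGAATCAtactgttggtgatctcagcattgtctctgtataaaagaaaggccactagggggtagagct
CXCL8: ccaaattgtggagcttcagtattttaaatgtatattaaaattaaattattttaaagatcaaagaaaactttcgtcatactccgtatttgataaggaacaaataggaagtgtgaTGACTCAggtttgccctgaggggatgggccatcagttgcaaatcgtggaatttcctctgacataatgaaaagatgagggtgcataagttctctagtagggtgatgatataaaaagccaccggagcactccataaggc
SERPINB2: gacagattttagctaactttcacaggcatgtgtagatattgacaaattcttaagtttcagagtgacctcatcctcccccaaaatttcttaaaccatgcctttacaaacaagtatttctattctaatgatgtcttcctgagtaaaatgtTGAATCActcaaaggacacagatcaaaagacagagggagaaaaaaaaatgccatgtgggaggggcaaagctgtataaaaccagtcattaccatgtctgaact
PLAUR: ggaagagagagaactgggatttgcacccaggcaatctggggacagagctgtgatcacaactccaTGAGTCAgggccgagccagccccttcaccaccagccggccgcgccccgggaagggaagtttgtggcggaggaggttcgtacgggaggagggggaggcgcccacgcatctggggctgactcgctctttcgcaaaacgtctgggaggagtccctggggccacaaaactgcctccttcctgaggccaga
VCAM1: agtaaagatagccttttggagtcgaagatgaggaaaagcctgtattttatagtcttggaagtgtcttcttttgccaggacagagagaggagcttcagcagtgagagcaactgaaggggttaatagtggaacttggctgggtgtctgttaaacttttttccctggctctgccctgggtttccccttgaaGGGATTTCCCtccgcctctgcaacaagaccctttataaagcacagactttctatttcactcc
The AP-1 letters stand at 67 to 61 bases before the start of MMP10, 137 to 131 before CXCL8, 102 to 96 before SERPINB2 and 186 to 180 before PLAUR. The NF-kappaB letters of VCAM1 stand at 62 to 53 bases before its start.

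Across all 27305 promoters of the table, 7.76% held the AP-1 letters and 4.85% the NF-kappaB letters. Among promoters matched by symbol, AP-1 letters were found in 5.51% of the 14061 of genes tested, 5.11% of the 4325 of genes called higher and 5.8% of the 2258 of genes called lower. Among genes whose log2 CPM averaged 1 or more, the 200 with the highest called differences had 131 matched promoters, of which 18 (13.7%) held AP-1 letters. The 200 with the lowest had 135, of which 5 (3.70%) did. The share of genes tested carries no such limit on level. NF-kappaB letters were found in 5.34% of the highest and 4.44% of the lowest, near the 5.22% of genes tested. They were found in 4.97% of all genes called higher and 5.36% of all called lower. These shares describe letters in a window and were not tested.

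Known feedback and target genes of the MAPK cascade were mostly called higher, and the cause was not tested. Of 21 such genes, 19 were called higher and 1 lower, with a median difference of 1.92. With HRAS(G12v) 16 rose and 0 fell, and after doxorubicin 4 rose and 10 fell. DUSP5, a nuclear phosphatase that switches off ERK, had 264 and 288 CPM in HRAS(G12v) libraries, 27.3 and 34.7 CPM in EV libraries, 12.8 and 11.6 CPM in Dox+ libraries and 22.2 and 23.5 CPM in Dox- libraries. HRAS(G12v) libraries were highest and Dox+ libraries lowest, below both controls, and the difference was 4.06 ± 0.20 (edgeR adjusted p = 7.05e-08). HMGA2, a chromatin protein of proliferating mesenchyme, had 215 and 183 CPM in HRAS(G12v) libraries, 46.4 and 35.9 CPM in EV libraries, 27.6 and 27 CPM in Dox+ libraries and 80.5 and 75.1 CPM in Dox- libraries, and its relative HMGA1 had 349 and 429 CPM in HRAS(G12v) libraries, 172 and 226 CPM in EV libraries, 32.1 and 32.8 CPM in Dox+ libraries and 160 and 161 CPM in Dox- libraries. Both rose with HRAS(G12v) and fell after doxorubicin, with differences of 3.79 ± 0.21 and 3.27 ± 0.22. SPRY1, an inhibitor of receptor tyrosine kinase signalling, was the member called lower, at -0.90 ± 0.23, a call lost without the first Dox- library (-0.79) and at 0.04 with the repeat doxorubicin experiment. Between the treated cells 18 members were higher and 1 lower in HRAS(G12v) than in Dox+ libraries, with a median gap of 2.26. Between the controls 7 were higher and 5 lower in EV than in Dox- libraries, with a median gap of 0.02.

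AP-1 factors bind DNA as pairs of FOS and JUN family proteins downstream of ERK and JNK. Of 13 tested, 9 were called higher and 2 lower, with a median of 1.28. JUN had 190 and 201 CPM in HRAS(G12v) libraries, 70.6 and 83.6 CPM in EV libraries, 47.3 and 52.9 CPM in Dox+ libraries and 71 and 75.5 CPM in Dox- libraries, highest in HRAS(G12v) and lowest in Dox+ libraries, for a difference of 1.89 ± 0.18 (edgeR adjusted p = 1.18e-05). FOSL1, a FOS relative, had 12.8 and 15.2 CPM in HRAS(G12v) libraries, 15.2 and 16.2 CPM in EV libraries, 3.75 and 4.51 CPM in Dox+ libraries and 16.6 and 14.7 CPM in Dox- libraries. Its HRAS(G12v) libraries were no higher than its controls, and its difference of 1.76 ± 0.21 came with low Dox+ libraries. With the repeat experiment the doxorubicin response of FOSL1 was -0.38 and did not pass, and the calls of FOSL1 (0.11), JUN (0.99) and ATF3 (-0.31) in the difference were lost. MAFF, a small MAF protein, was called higher at 1.28 ± 0.19, and ATF3, induced by stress, and FOSL2 were called lower at -1.19 ± 0.22 and -1.02 ± 0.20.

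Several ligands of the EGF receptor were called higher. AREG, amphiregulin, had 64.7 and 57.3 CPM in HRAS(G12v) libraries, 1.27 and 0.995 CPM in EV libraries, 6.27 and 6.51 CPM in Dox+ libraries and 2.32 and 1.98 CPM in Dox- libraries. EREG, epiregulin, had 277 and 232 CPM in HRAS(G12v) libraries, 8.83 and 5.32 CPM in EV libraries, 28.3 and 31.2 CPM in Dox+ libraries and 15 and 13.8 CPM in Dox- libraries. HBEGF, the heparin-binding member, had 32 and 33.6 CPM in HRAS(G12v) libraries, 7.57 and 8.21 CPM in EV libraries, 2.86 and 3.1 CPM in Dox+ libraries and 5.89 and 5.53 CPM in Dox- libraries. For all 3 the HRAS(G12v) libraries stood above every other library; Dox+ libraries stood above the controls for AREG and EREG and below them for HBEGF. The differences were 4.17 ± 0.23, 4.12 ± 0.29 and 2.99 ± 0.19 (edgeR adjusted p = 1.28e-07, 9.02e-07 and 4.61e-07 in the same order). Of 12 ligands and receptors of the family, 6 were called higher and 1 lower, ERBB2, a receptor without a ligand of its own, at -1.08 ± 0.21. The median difference was 1.28, and 2.42 without the first EV library. TGFA, a related ligand, was at 0 in both EV libraries and averaged 0.926 CPM in HRAS(G12v) libraries, at least 48.2-fold higher with a floor of 3 counts per library.

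NF-kappaB subunits and the inhibitors they induce changed less, with 8 of 15 called higher, 1 lower and a median of 0.64. NFKBIE, an inhibitor, and BIRC3, a ubiquitin ligase of the TNF pathway, were called higher at 1.21 ± 0.20 and 2.62 ± 0.43, the second being 3.34 without the first EV library. SOD2, the mitochondrial superoxide dismutase, had 672 and 523 CPM in HRAS(G12v) libraries, 148 and 98.6 CPM in EV libraries, 1940 and 1950 CPM in Dox+ libraries and 196 and 209 CPM in Dox- libraries. It rose in both treated groups and more in Dox+ libraries, for a difference of -0.99 ± 0.25 (edgeR adjusted p = 0.00953), and took the other sign, 1.11, with the repeat experiment. Of the interleukin-1 receptors, IL1RL1, the receptor of interleukin-33, was called higher at 6.59 ± 0.70, 8.12 without the first EV library, 5.87 without the second and 7.18 without the second Dox+ library, and IL1R1, the signalling receptor of interleukin-1, was called lower at -1.86 ± 0.20 with 14.3 and 13.4 CPM in HRAS(G12v) libraries, 24 and 19.3 CPM in EV libraries, 88.5 and 80.8 CPM in Dox+ libraries and 37.3 and 35.6 CPM in Dox- libraries.

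Chemokines with the CXC motif, many of which attract neutrophils, mostly rose with both treatments. Their median response was 6.48 to HRAS(G12v) and 5.55 to doxorubicin, and of 11 tested 9 rose after doxorubicin and 8 with HRAS(G12v). Within the difference, 4 were called higher and 3 lower, with a median of -1.04, or -1.16 with a group at 0 set to the floor. That median was -0.38 without the first and 0.22 without the second EV library, and 0.08 with the repeat experiment. CXCL12, among those called lower at -1.22 ± 0.33, fell with HRAS(G12v) (-1.32) and had a doxorubicin response of -0.11 that did not pass. Its difference was -1.13 without the first Dox- and -1.09 without the first Dox+ library.

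CXCL8, interleukin-8, had 1580 and 999 CPM in HRAS(G12v) libraries, 1.97 and 1.9 CPM in EV libraries, 302 and 341 CPM in Dox+ libraries and 4.4 and 9.36 CPM in Dox- libraries. CXCL5 had 202 and 167 CPM in HRAS(G12v) libraries, 0.251 and 0.313 CPM in EV libraries, 49 and 50 CPM in Dox+ libraries and 0.555 and 0.593 CPM in Dox- libraries. CXCL3 had 45.1 and 45.1 CPM in HRAS(G12v) libraries, 0.183 and 0.0995 CPM in EV libraries, 12.5 and 15.2 CPM in Dox+ libraries and 0.173 and 0.395 CPM in Dox- libraries. In all 3 the HRAS(G12v) libraries were highest and the Dox+ libraries next, both far above the controls. The differences were 3.83 ± 0.42, 2.93 ± 0.23 and 2.68 ± 0.44 (edgeR adjusted p = 3.06e-05, 2.72e-06 and 0.000622 in the same order), and without the second Dox- library those of CXCL8 and CXCL3 were 3.20 and 1.97. CXCL1 had 29.7 and 32.5 CPM in HRAS(G12v) libraries, 0.342 and 0.355 CPM in EV libraries, 94.5 and 103 CPM in Dox+ libraries and 0.148 and 0.515 CPM in Dox- libraries, and CXCL6 had 1.9 and 1.49 CPM in HRAS(G12v) libraries, 0.0571 and 0.0284 CPM in EV libraries, 31.7 and 30.9 CPM in Dox+ libraries and 0.074 and 0.264 CPM in Dox- libraries. In these the Dox+ libraries were highest. CXCL1 was called lower at -1.73 ± 0.47, -1.09 without the first and -2.89 without the second Dox- library, and at 0.08 with the repeat experiment. CXCL6 was called lower at -2.28 ± 0.76, with values from -1.64 to -3.46 when 1 library was left out; the call was lost without the first Dox+, the first EV or the second HRAS(G12v) library, at -2.25, -1.65 and -2.11.

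Chemokines with the CC motif, which attract monocytes and lymphocytes, divided by treatment. CCL2, or MCP-1, the main attractant of monocytes, had 3.61 and 4.58 CPM in HRAS(G12v) libraries, 14.2 and 12.2 CPM in EV libraries, 153 and 165 CPM in Dox+ libraries and 17.5 and 18.5 CPM in Dox- libraries. Dox+ libraries stood well above both controls, and HRAS(G12v) libraries below them. CCL2 fell with HRAS(G12v), by -1.69 ± 0.15 on the log2 scale, and rose after doxorubicin by 3.15 ± 0.15, for a difference of -4.84 ± 0.21 (edgeR adjusted p = 3.43e-08).

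CCL20, an attractant of cells with CCR6, went the other way, with 21.2 and 16 CPM in HRAS(G12v) libraries, 0.0 and 0.0 CPM in EV libraries, 2.67 and 3.01 CPM in Dox+ libraries and 0.037 and 0.419 CPM in Dox- libraries. Both EV libraries were at 0, so HRAS(G12v) was at least 969-fold higher with a floor of 3 counts per library, and Dox- libraries held few counts. CCL13, which acts on monocytes and eosinophils, was at 0 in both HRAS(G12v) libraries and averaged 1.29 CPM in Dox+ libraries, at least 56.5-fold lower in HRAS(G12v). CCL7, with under 2 CPM in every library, was called lower at -4.52 ± 1.60, but that value was 0.27 without the second EV library, -9.43 without the second Dox- library and -3.55 to -5.65 in other omissions, so its sign rested on 1 EV library. CCL26, an attractant of eosinophils, was called higher at 3.45 ± 0.73, 4.13 without the first EV library and 2.69 without the second Dox- library. Of 8 tested, 2 were called higher and 3 lower; 4 had a group at 0, and the median of -4.53 was -3.65 with those at the floor, -2.12 without the second EV library and -3.89 without the second Dox- library.

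The adhesion molecule VCAM1, which holds leukocytes that carry integrin alpha-4, had 0.58 and 0.963 CPM in HRAS(G12v) libraries, 17.4 and 11.7 CPM in EV libraries, 231 and 228 CPM in Dox+ libraries and 14.1 and 13.3 CPM in Dox- libraries. The Dox+ libraries were highest, the controls overlapped, and the HRAS(G12v) libraries were lowest. It fell with HRAS(G12v) and rose after doxorubicin, by -4.25 ± 0.24 and 4.06 ± 0.22, for a difference of -8.32 ± 0.33 (edgeR adjusted p = 1.68e-08). The gamma globins, subunits of fetal haemoglobin, had the same order. HBG2 had 0.117 and 0.241 CPM in HRAS(G12v) libraries, 1.15 and 0.952 CPM in EV libraries, 60.3 and 55.1 CPM in Dox+ libraries and 0.801 and 1.61 CPM in Dox- libraries, high in both Dox+ libraries and under 2 CPM elsewhere, for a difference of -8.17 ± 0.46 (edgeR adjusted p = 1.55e-07). HBG1 had a difference of -8.67 ± 0.55, which was -8.07 without the first EV library and -9.36 without the second HRAS(G12v) library. HBG2 shares 61.0% and HBG1 33.1% of its 31-base exon stretches with other genes, so the division of counts between them is uncertain.

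Collagens separated the responses in the other direction. Of 21 collagen genes, 17 were called lower and 2 higher, with a median of -1.81. COL3A1, a fibrillar collagen of soft tissue, had 82 and 89.6 CPM in HRAS(G12v) libraries, 1200 and 1320 CPM in EV libraries, 1790 and 1770 CPM in Dox+ libraries and 845 and 817 CPM in Dox- libraries. The groups did not overlap, with HRAS(G12v) libraries far under every other library and Dox+ libraries highest. It fell with HRAS(G12v) (-3.88 ± 0.13) and rose after doxorubicin (1.10 ± 0.12), for a difference of -4.97 ± 0.17 (edgeR adjusted p = 9.02e-09).

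COL14A1, which lies on fibril surfaces, had 0.228 and 0.606 CPM in HRAS(G12v) libraries, 14.1 and 14.7 CPM in EV libraries, 94.3 and 86.7 CPM in Dox+ libraries and 15.4 and 17.1 CPM in Dox- libraries. Both HRAS(G12v) libraries were under 1 CPM, the controls were close, and Dox+ libraries were highest (-7.62 ± 0.38, edgeR adjusted p = 6.46e-08; -8.44 without the second HRAS(G12v) library). COL15A1, a basement membrane collagen, had 0.145 and 0.291 CPM in HRAS(G12v) libraries, 30.6 and 34.3 CPM in EV libraries, 9.52 and 8.77 CPM in Dox+ libraries and 18.7 and 20.1 CPM in Dox- libraries. It fell in both responses, far more with HRAS(G12v), for a difference of -6.16 ± 0.30 (edgeR adjusted p = 5.64e-08). COL11A1, a minor fibrillar collagen, was also called lower, at -3.73 ± 0.18. COL10A1, a collagen of growing cartilage, and COL5A3 were the 2 called higher, at 2.63 ± 0.28 and 1.51 ± 0.25.

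The summed collagen level was 4230 and 4830 CPM in HRAS(G12v), 13300 and 16000 CPM in EV, 11600 and 11400 CPM in Dox+ and 9020 and 8940 CPM in Dox- libraries. HRAS(G12v) libraries were lowest and EV libraries highest. The fall lay in the HRAS response, with a median of -1.70 against 0.14 for doxorubicin, and 16 of 21 were lower, and 3 higher, in HRAS(G12v) than in Dox+ libraries. The controls differed too, with 17 of 21 higher in EV than in Dox- libraries and a median gap of 0.68.

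Other matrix genes followed, with 17 of 25 glycoproteins and crosslinkers called lower, 3 higher and a median of -1.20. DCN, decorin, which coats collagen fibrils, had 22.7 and 24.7 CPM in HRAS(G12v) libraries, 466 and 318 CPM in EV libraries, 1730 and 1630 CPM in Dox+ libraries and 954 and 930 CPM in Dox- libraries. HRAS(G12v) libraries were lowest, and Dox+ libraries highest, with the 2 controls apart from each other (-4.88 ± 0.24, edgeR adjusted p = 6.12e-08). FBLN1 and FBLN2, fibulins of elastic fibres and basement membranes, were called lower at -4.11 ± 0.22 and -3.53 ± 0.22. POSTN, periostin, was called higher at 2.03 ± 0.24, although its level in HRAS(G12v) libraries was below that in Dox+ libraries (34.5 and 30.4 CPM in HRAS(G12v) libraries, 13.5 and 9.33 CPM in EV libraries, 49.2 and 44.3 CPM in Dox+ libraries and 69.3 and 65 CPM in Dox- libraries); the gap lay between the controls. TNC and ELN were called higher at 0.99 ± 0.20 and 0.94 ± 0.29, and with the repeat experiment both took the other sign, -0.83 and -3.18. The call of ELN was also lost, at 0.95, 0.95, 0.68 and 0.82, when the first or second Dox-, the first Dox+ or the second HRAS(G12v) library was left out.

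CEMIP, which degrades hyaluronan, had 7.52 and 9.51 CPM in HRAS(G12v) libraries, 311 and 391 CPM in EV libraries, 159 and 157 CPM in Dox+ libraries and 121 and 114 CPM in Dox- libraries and a difference of -5.79 ± 0.22 (edgeR adjusted p = 1.43e-08). HRAS(G12v) libraries were far below the rest, and EV libraries highest. The proteases ADAMTS8 and ADAMTS15, which cut matrix proteoglycans, were called lower at -7.53 ± 0.33 and -7.41 ± 0.37, and PODN, podocan, a leucine-rich matrix protein, at -7.01 ± 0.28.

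Genes that mark fibroblast identity were called lower in 10 of 17 cases and higher in 2, with a median of -1.60, or -1.28 with a gene at 0 set to the floor. WNT2, a ligand made by lung mesenchyme, had 0.0276 and 0.0664 CPM in HRAS(G12v) libraries, 4.21 and 3.6 CPM in EV libraries, 10.1 and 8.78 CPM in Dox+ libraries and 6.01 and 6.41 CPM in Dox- libraries, near 0 in HRAS(G12v) libraries (-7.01 ± 0.35, edgeR adjusted p = 6.82e-08; -7.70 without the second HRAS(G12v) library). PDGFRB, a receptor of PDGF, had 20.2 and 23.9 CPM in HRAS(G12v) libraries, 143 and 181 CPM in EV libraries, 82.6 and 82.6 CPM in Dox+ libraries and 74.9 and 75.9 CPM in Dox- libraries, lowest in HRAS(G12v) and highest in EV libraries (-3.01 ± 0.20, edgeR adjusted p = 7.05e-07). PDGFRA, given above, was called lower at -1.94 ± 0.17, and VIM higher at 1.12 ± 0.15.

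Contractile genes were called lower in 8 of 14 cases and higher in 1, with a median of -0.83. ACTA2, smooth muscle actin, had 50.1 and 57.5 CPM in HRAS(G12v) libraries, 345 and 396 CPM in EV libraries, 107 and 115 CPM in Dox+ libraries and 321 and 340 CPM in Dox- libraries. It fell in both treated groups, lowest in HRAS(G12v), and its difference was -1.21 ± 0.18 (edgeR adjusted p = 0.000287). LMOD1, leiomodin of smooth muscle, was called lower at -5.07 ± 0.28, and SMTN, smoothelin, was the 1 called higher, at 2.62 ± 0.20.

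Of 19 genes of TGF-beta signalling, 9 were called lower and 5 higher, with a median of -0.27. BMP2 and BMP4, growth factors of the family, parted. BMP2 had 93.4 and 90.6 CPM in HRAS(G12v) libraries, 3.96 and 3.49 CPM in EV libraries, 15 and 14.6 CPM in Dox+ libraries and 5.65 and 5.92 CPM in Dox- libraries, highest in HRAS(G12v) libraries (3.27 ± 0.18, edgeR adjusted p = 1.4e-07). BMP4 had 1.64 and 2.05 CPM in HRAS(G12v) libraries, 10.5 and 11.2 CPM in EV libraries, 48 and 45.6 CPM in Dox+ libraries and 11.6 and 12.1 CPM in Dox- libraries, highest in Dox+ and lowest in HRAS(G12v) libraries (-4.55 ± 0.21, edgeR adjusted p = 4e-08). INHBA, the activin A subunit, was called higher at 2.13 ± 0.20, and TGFB2 and LTBP1, which stores the latent ligand in matrix, lower at -1.47 ± 0.18 and -1.49 ± 0.17.

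IGF-binding proteins hold insulin-like growth factors outside the cell, and their list also held the ligands IGF1 and IGF2 and the receptor IGF1R. Of its 10 genes, 7 were called lower and 1 higher, with a median of -2.31. IGFBP3 had 30.6 and 32.4 CPM in HRAS(G12v) libraries, 149 and 146 CPM in EV libraries, 349 and 342 CPM in Dox+ libraries and 186 and 187 CPM in Dox- libraries, and IGFBP5 had 356 and 423 CPM in HRAS(G12v) libraries, 1590 and 2040 CPM in EV libraries, 2030 and 1960 CPM in Dox+ libraries and 1110 and 1140 CPM in Dox- libraries. Both were lowest in HRAS(G12v) and Dox+ was at or near the top, and the differences were -3.12 ± 0.16 and -3.04 ± 0.20 (edgeR adjusted p = 8.45e-08 and 5.95e-07). IGFBP4 had 258 and 277 CPM in HRAS(G12v) libraries, 283 and 365 CPM in EV libraries, 1060 and 1260 CPM in Dox+ libraries and 234 and 224 CPM in Dox- libraries. Here HRAS(G12v) and EV libraries were close, and the difference of -2.62 ± 0.21 came from a doxorubicin response of 2.35 ± 0.15. IGFBP1, the 1 called higher, was at 0 in both EV libraries and averaged 0.184 CPM in HRAS(G12v) libraries, at least 9.57-fold higher with a floor of 3 counts per library.

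C1R, a protease of the classical complement pathway, had 2.45 and 2.9 CPM in HRAS(G12v) libraries, 63.4 and 70.3 CPM in EV libraries, 97.3 and 98.5 CPM in Dox+ libraries and 61 and 59.7 CPM in Dox- libraries. HRAS(G12v) libraries were far below all others, and Dox+ libraries highest (-5.34 ± 0.19, edgeR adjusted p = 9.02e-09). C7, a part of the membrane attack complex of complement, had 0.0553 and 0.0 CPM in HRAS(G12v) libraries, 2.1 and 2.51 CPM in EV libraries, 10.6 and 8.89 CPM in Dox+ libraries and 1.21 and 1.54 CPM in Dox- libraries. It was at or near 0 in HRAS(G12v) libraries, and its difference of -9.05 ± 0.53 was -14.28 without the first and -8.18 without the second HRAS(G12v) library. Others with the smallest adjusted p on the lower side were CYTL1, a small secreted protein (-6.17 ± 0.22), GALNT15, an enzyme that adds sugars to proteins (-5.82 ± 0.19), and ABCA8, a lipid transporter (-5.70 ± 0.20).

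Prostaglandin genes were called in both directions. PTGS2, the inducible cyclooxygenase COX-2, had 67 and 55.1 CPM in HRAS(G12v) libraries, 0.462 and 0.348 CPM in EV libraries, 21.2 and 24 CPM in Dox+ libraries and 1.49 and 1.98 CPM in Dox- libraries. It rose in both treated groups, more with HRAS(G12v), for a difference of 3.52 ± 0.27 (edgeR adjusted p = 1.98e-06). PTGS1, the constitutive form, had 20.2 and 25.1 CPM in HRAS(G12v) libraries, 71.8 and 92.1 CPM in EV libraries, 98.2 and 98.4 CPM in Dox+ libraries and 55.3 and 55.9 CPM in Dox- libraries, lowest in HRAS(G12v) and highest in Dox+ libraries, for a difference of -2.68 ± 0.21 (edgeR adjusted p = 2.58e-06). PTGDS, the prostaglandin D synthase, was called lower at -6.53 ± 0.50, -5.64 without the first and -8.35 without the second HRAS(G12v) library, and PTGER2, a receptor of prostaglandin E2, at -2.44 ± 0.20. In all, 4 of 10 were called higher and 5 lower, with a median of -1.07.

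Interferon-stimulated genes, which cells switch on against viruses and in response to cytosolic DNA, were called lower in 24 of 34 cases and higher in 1, OASL, at 1.11 ± 0.37, a call lost in 5 of the 8 omissions of 1 library and in the repeat experiment (-0.12). The median difference was -1.77, from a median of -0.92 for HRAS(G12v) and 0.72 for doxorubicin. IFI6, an interferon-induced mitochondrial protein, had 8.39 and 7.54 CPM in HRAS(G12v) libraries, 11.9 and 17.3 CPM in EV libraries, 35.1 and 26 CPM in Dox+ libraries and 5.58 and 6.03 CPM in Dox- libraries. The Dox+ libraries were highest, HRAS(G12v) libraries were between the 2 controls, and the difference was -3.27 ± 0.28 (edgeR adjusted p = 4.46e-06). GBP2, a guanylate-binding GTPase, had 1.14 and 0.98 CPM in HRAS(G12v) libraries, 7.33 and 6.52 CPM in EV libraries, 17.2 and 14.3 CPM in Dox+ libraries and 8.68 and 10.3 CPM in Dox- libraries, lowest in HRAS(G12v) and highest in Dox+ libraries (-3.43 ± 0.24, edgeR adjusted p = 8.79e-07). IFITM3, which blocks virus entry, was called lower at -2.17 ± 0.23, and shares 56.0% of its exon stretches with other genes.

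The summed interferon level was 572 and 564 CPM in HRAS(G12v), 713 and 797 CPM in EV, 1190 and 1180 CPM in Dox+ and 661 and 668 CPM in Dox- libraries. Dox+ libraries were above the rest and HRAS(G12v) libraries below. RSAD2, viperin, was at 0 in both Dox- libraries and averaged 0.214 CPM in Dox+ libraries, at least 11.8-fold higher with a floor of 3 counts per library.

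**Figure D3:**
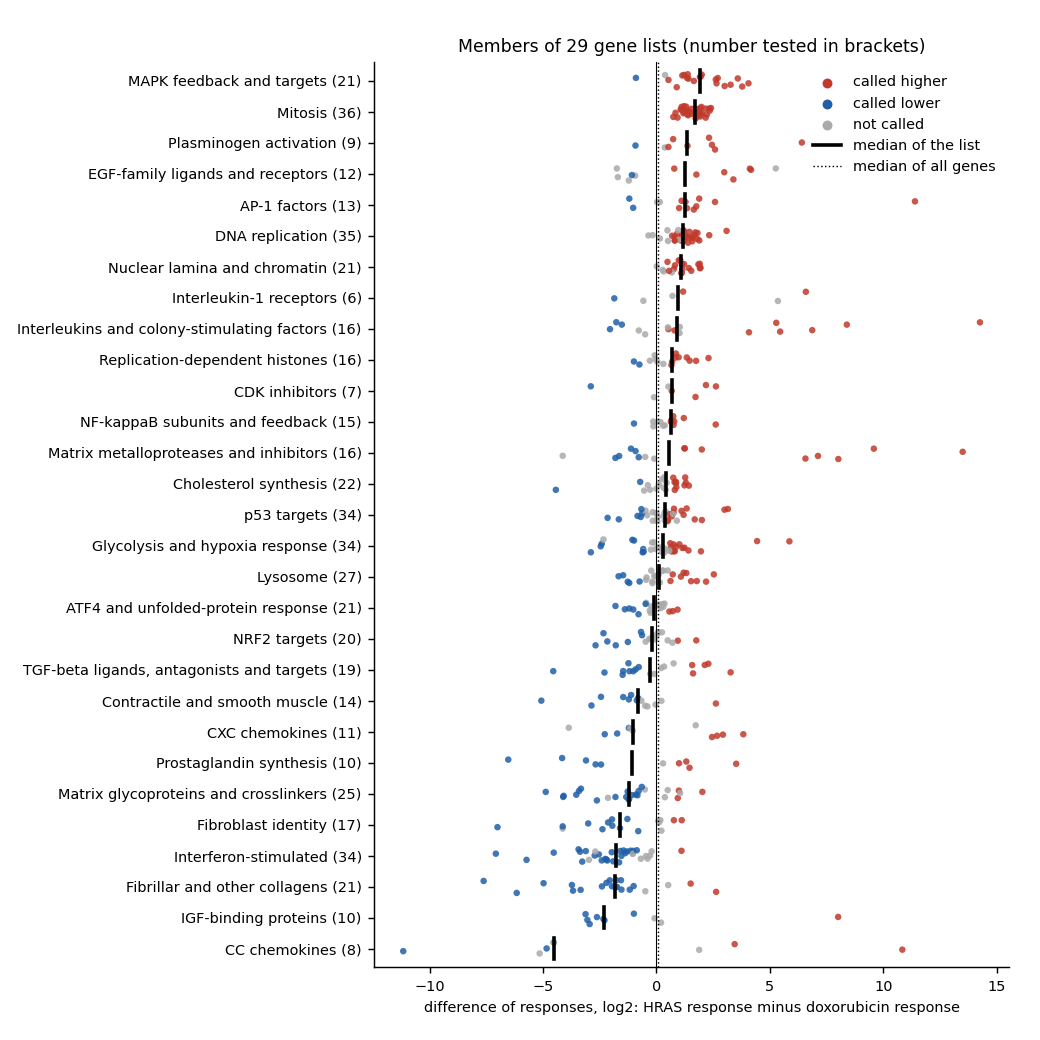
Differences of responses (log2, HRAS minus doxorubicin) of the tested members of 29 gene lists, 1 point a gene, with bars at the list medians and a dotted line at the median of all genes, 0.07. MAPK feedback, with a median of 1.92, lies to the right, and collagens (-1.81), interferon-stimulated genes (-1.77) and IGF-binding proteins (-2.31) lie to the left. The list of IGF-binding proteins also holds IGF1, IGF2 and IGF1R. RAS genes and the endothelial, epithelial and leukocyte markers are not drawn, and the endothelial median, 4.83, was higher than that of MAPK feedback.

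Inhibitors of the cyclin-dependent kinases, which enforce the stop of division, rose more with HRAS(G12v) where they rose. CDKN2A, which encodes p16 and ARF, had 57.7 and 58.6 CPM in HRAS(G12v) libraries, 10.9 and 13.5 CPM in EV libraries, 17.5 and 17.5 CPM in Dox+ libraries and 11.5 and 12.8 CPM in Dox- libraries. CDKN2B, or p15, had 111 and 101 CPM in HRAS(G12v) libraries, 9.33 and 7.47 CPM in EV libraries, 12.4 and 12.8 CPM in Dox+ libraries and 6.62 and 5.72 CPM in Dox- libraries. Both were highest in HRAS(G12v) libraries and rose in both responses, with differences of 1.73 ± 0.20 and 2.63 ± 0.21 (edgeR adjusted p = 4.25e-05 and 2.36e-06). In the repeat experiment both were called lower after doxorubicin, CDKN2A by -1.24 (edgeR adjusted p = 0.00569) and CDKN2B by -1.01 (edgeR adjusted p = 0.0179), and the differences were 3.38 and 4.56. CDKN2A exons overlap an antisense gene, CDKN2B-AS1. CDKN1A, or p21, the p53 target, had 2740 and 3050 CPM in HRAS(G12v) libraries, 482 and 619 CPM in EV libraries, 719 and 747 CPM in Dox+ libraries and 221 and 225 CPM in Dox- libraries. It rose by 2.4 ± 0.14 with HRAS(G12v) and by 1.72 ± 0.14 after doxorubicin, and the difference of 0.68 ± 0.19 (edgeR adjusted p = 0.0155) was no longer called without the first Dox+ (0.65), the second Dox+ (0.62) or the second HRAS(G12v) library (0.61). With the repeat its doxorubicin response was 0.04, which did not pass, and its difference 2.24.

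CDKN2D was called higher at 2.19 ± 0.26 and CDKN1C, or p57, lower at -2.89 ± 0.27. CDKN1B, or p27, had a difference of -0.11 ± 0.22, and CDKN2C, or p18, of 0.53 ± 0.28, neither of which passed; CDKN2C fell in both responses and was 0.82, and called, without the second HRAS(G12v) library. Of 34 p53 targets, 28 rose with HRAS(G12v) and 24 after doxorubicin. In the difference 13 were called higher and 6 lower, beside 21.6% and 14% of all genes, with a median of 0.37. In the repeat experiment 2 of the 34 rose after doxorubicin and 1 fell, with a median of -0.02, and the difference had 16 higher and 1 lower with a median of 0.93. GDF15, a stress cytokine, had 1660 and 1660 CPM in HRAS(G12v) libraries, 46.7 and 60.3 CPM in EV libraries, 105 and 107 CPM in Dox+ libraries and 27.2 and 27.5 CPM in Dox- libraries. HRAS(G12v) libraries stood above all others, and Dox+ libraries above the controls (3.00 ± 0.19, edgeR adjusted p = 4.3e-07). PMAIP1, or NOXA, which promotes cell death, was called higher at 3.15 ± 0.29, TNFRSF10A, a TRAIL receptor, at 2.00 ± 0.18, and PTCHD4 lower at -1.66 ± 0.27.

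Genes of cell division were called higher, while the treated cells of both kinds held overlapping low levels of them. Of 36 mitosis genes all 36 were called higher, with a median of 1.72, from a median of -2.47 with HRAS(G12v) and -4.01 after doxorubicin. Their summed level was 188 and 183 CPM in HRAS(G12v), 851 and 739 CPM in EV, 188 and 180 CPM in Dox+ and 2440 and 2330 CPM in Dox- libraries. The 2 treated groups overlapped, and the controls did not: EV libraries held far less than Dox- libraries. In HRAS(G12v) against Dox+ libraries 13 of the 36 were higher and 7 lower, with a median of 0.00, whereas 33 of 36 were lower in EV than in Dox- libraries, with a median of -1.66.

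CENPF, a kinetochore protein, had 10 and 10.2 CPM in HRAS(G12v) libraries, 45.9 and 42.4 CPM in EV libraries, 7.99 and 6.32 CPM in Dox+ libraries and 155 and 127 CPM in Dox- libraries. TPX2, which builds the spindle, had 6.83 and 6.97 CPM in HRAS(G12v) libraries, 26.9 and 27.6 CPM in EV libraries, 4.12 and 3.52 CPM in Dox+ libraries and 57.9 and 58.7 CPM in Dox- libraries. Both fell in both treated groups, and Dox- libraries were highest, with EV libraries next. The differences were 2.18 ± 0.21 and 1.95 ± 0.18 (edgeR adjusted p = 1.2e-05 and 9.26e-06), against direct gaps of 0.50 and 0.85 between HRAS(G12v) and Dox+ libraries. Of 35 DNA replication genes, 28 were called higher and the other 7 did not pass, with a median of 1.19 and of 0.04 between HRAS(G12v) and Dox+ libraries. RRM2, the small subunit of ribonucleotide reductase, had 9.25 and 9.65 CPM in HRAS(G12v) libraries, 45.6 and 40.3 CPM in EV libraries, 6.59 and 6.51 CPM in Dox+ libraries and 97.2 and 97.7 CPM in Dox- libraries (1.71 ± 0.17, edgeR adjusted p = 1.73e-05).

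Replication-dependent histones were called higher in 9 of 16 cases and lower in 2, with a median of 0.68, and nuclear lamina and chromatin genes in 17 of 21 cases, with a median of 1.10. In HRAS(G12v) against Dox+ libraries 5 histones were higher and 6 lower (median -0.14), and in EV against Dox- libraries 0 were higher and 13 lower (median -0.63). Of the lamina and chromatin genes, 8 were higher and 5 lower between the treated cells (median 0.20). Between the controls 1 of them was higher and 12 lower (median -0.88). H1-5, a linker histone, had 12.3 and 14.1 CPM in HRAS(G12v) libraries, 125 and 153 CPM in EV libraries, 4.99 and 4.72 CPM in Dox+ libraries and 240 and 263 CPM in Dox- libraries, and LMNB2, lamin B2, had 116 and 126 CPM in HRAS(G12v) libraries, 149 and 189 CPM in EV libraries, 49.2 and 50.9 CPM in Dox+ libraries and 206 and 199 CPM in Dox- libraries. Both were lowest in Dox+ libraries, and the differences were 2.30 ± 0.20 and 1.54 ± 0.19 (edgeR adjusted p = 4.71e-06 and 8.01e-05).

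**Figure D4:**
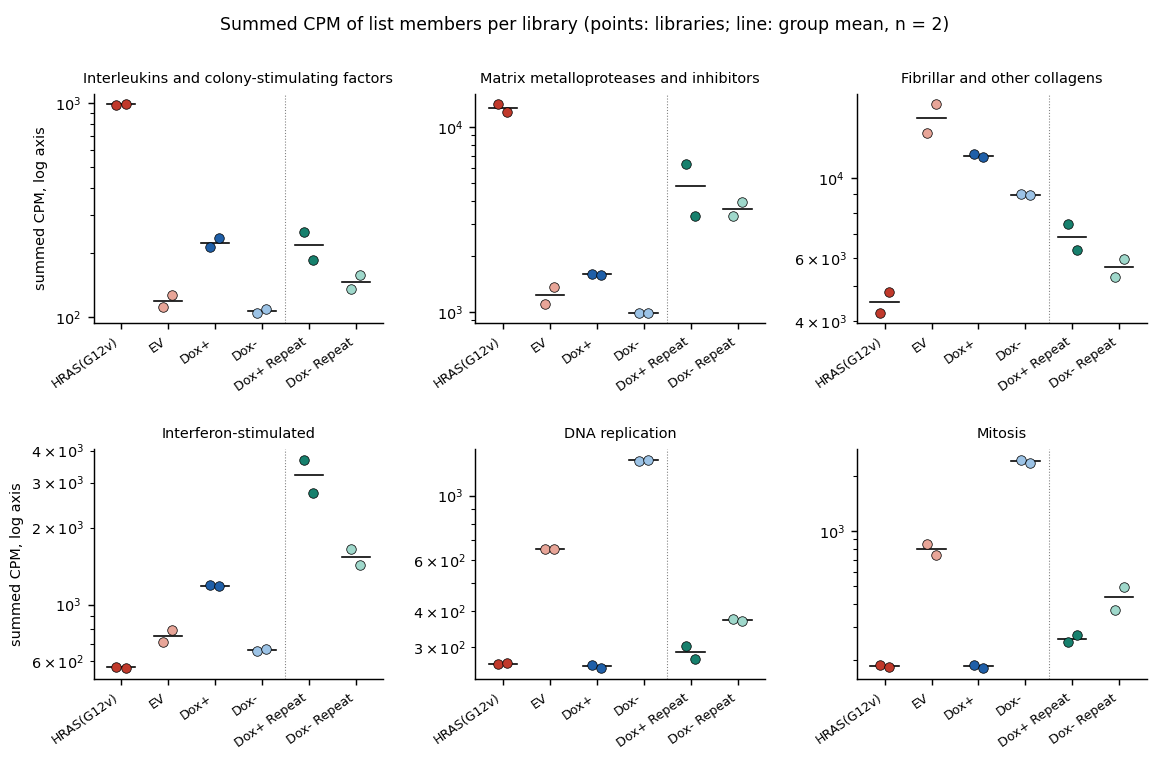
Summed CPM of 6 gene lists in each library of HRAS(G12v), EV, Dox+ and Dox- and of the repeat doxorubicin experiment. The repeat libraries were scaled in a separate fit, so their levels compare only roughly with the others. Mitosis genes sum to between 180 and 188 CPM in HRAS(G12v) and Dox+ libraries, 739 and 851 CPM in EV and 2330 and 2440 CPM in Dox- libraries, but only to 374 and 498 CPM in Dox- Repeat libraries.

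**Figure D5:**
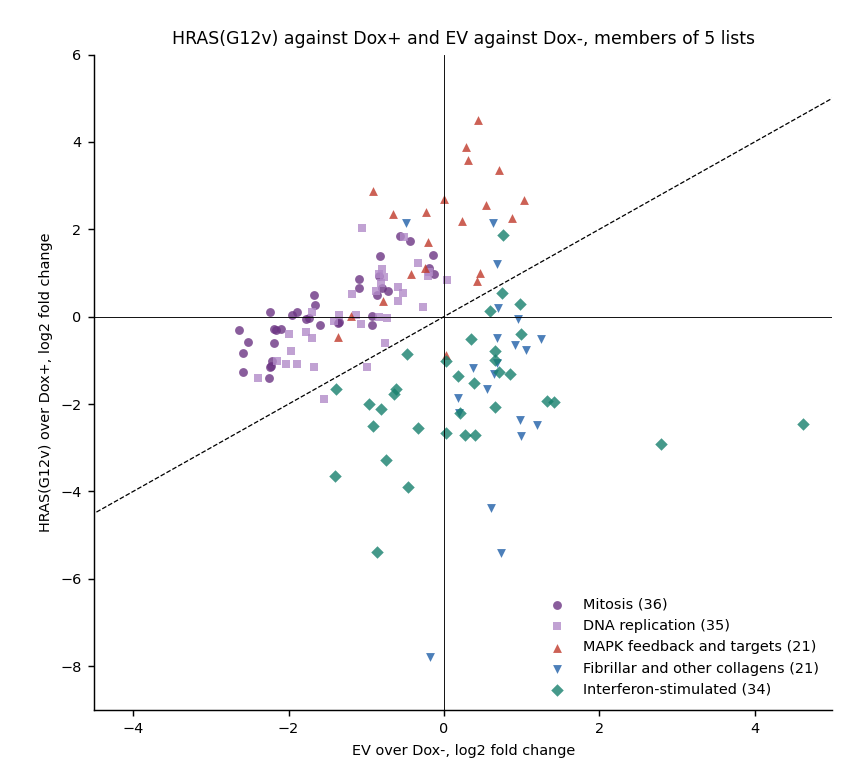
The gap of HRAS(G12v) over Dox+ libraries (vertical axis, log2) against the gap of EV over Dox- libraries (horizontal axis, log2) for members of 5 lists; on the dashed line the difference of responses is 0. Mitosis genes lie at a median of 0.00 on the vertical and -1.66 on the horizontal axis, and collagens at -1.16 and 0.68.

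A second doxorubicin experiment, labelled a repeat and treated alike, gave the same contrast in 4 libraries the difference had not used. These libraries differ in make-up: protein-coding genes took 88.3% to 89.8% of their counts against 50.7% to 63.6% in the first 8, and small structural RNAs 0.0382% to 0.115% against 5.16% to 7.48%. With the repeat in place of the first experiment, 3144 of 32468 genes tested were called higher (9.68%) and 2882 lower (8.88%). Both differences share the HRAS(G12v) and EV libraries. Of the genes called higher at first, 6347 were tested again, 5747 (90.5%) kept their sign, 2440 (38.4%) were called the same way and 186 the other way. Of those called lower, 4087 were tested, 3845 (94.1%) kept their sign, 2002 (49.0%) were called the same way and 15 the other way.

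Several genes that lead either side kept their sign and their call with the repeat, at sizes that moved. The repeat difference was 4.87 for STC1, 5.68 for MMP3, 6.90 for MMP1, 7.64 for SERPINB2, -5.68 for COL3A1, -6.09 for CCL2 and -8.27 for VCAM1. For IL1B it was 4.41, as the Dox+ Repeat libraries held 3.21 and 3.90 CPM of it and the Dox- Repeat libraries 0.0898 and 0.131 CPM. For MMP10 it was 3.59, for SPP1 7.26 and for ESM1 5.02, and ESM1 was called higher after doxorubicin in the repeat (1.53) where it was lower at first (-1.23). Calls were lost for BIRC3 (1.30), MMP11 (-0.71), TIMP3 (-0.21), COL5A3 (0.39), POSTN (1.06), IGFBP1 (5.49) and VLDLR (-0.14). Among lists, MAPK feedback had 14 of 21 called higher and a median of 1.31, collagens 15 called lower and 1 higher with a median of -2.34, and interferon-stimulated genes 27 called lower with a median of -2.91.

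The lists of cell division reversed. With the repeat, 29 of 36 mitosis genes were called lower, with a median of -1.82, and 21 of 35 DNA replication genes lower, with a median of -1.29. Replication-dependent histones had 15 called lower with a median of -2.56, and nuclear lamina and chromatin genes 5 lower with a median of -0.45. CENPF, TPX2 and RRM2 stood at -0.84, -1.34 and -1.72. The Dox- Repeat libraries held 374 and 498 CPM of mitosis genes, far below the 2440 and 2330 CPM of the first Dox- libraries, and the Dox+ Repeat libraries 249 and 272 CPM, so the doxorubicin response of this list had a median of -0.66 in the repeat. The EV libraries, at 851 and 739 CPM, lay between the 2 sets of Dox- libraries, but the repeat libraries were scaled in a separate fit. With their other make-up, given above, levels compare only roughly between the 2 experiments.

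Metabolic lists were mixed. Of 34 genes of glycolysis and the hypoxia response, 14 were called higher and 8 lower, with a median of 0.30. ANGPTL4, an inhibitor of lipoprotein lipase, had 198 and 224 CPM in HRAS(G12v) libraries, 1.35 and 1.98 CPM in EV libraries, 4.96 and 5.56 CPM in Dox+ libraries and 2.47 and 2.35 CPM in Dox- libraries, high in HRAS(G12v) libraries (5.86 ± 0.25, edgeR adjusted p = 2.75e-08). HK2, hexokinase 2, was called higher at 1.96 ± 0.17, while SLC2A1, the glucose transporter GLUT1, had 70.3 and 75.2 CPM in HRAS(G12v) libraries, 232 and 306 CPM in EV libraries, 317 and 332 CPM in Dox+ libraries and 158 and 166 CPM in Dox- libraries, lowest in HRAS(G12v) and highest in Dox+ libraries (-2.89 ± 0.20, edgeR adjusted p = 8.82e-07).

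Cholesterol synthesis had 10 of 22 called higher and 2 lower with a median of 0.43, and 18 higher with a median of 2.37 with the repeat. INSIG1, which restrains SREBP, and NSDHL, an enzyme of the pathway, were called higher at 1.43 ± 0.22 and 1.30 ± 0.23. SREBF2, which switches on genes of the pathway, was called lower at -0.71 ± 0.20, a call lost without the second Dox-, the first Dox+ or the first HRAS(G12v) library (-0.67, -0.73 and -0.61), and stood at 0.79 with the repeat.

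Of 27 lysosomal genes, 9 were called higher and 5 lower, beside 21.6% and 14% of all genes, with a median of 0.12. NPC1, which exports cholesterol from lysosomes, had 106 and 125 CPM in HRAS(G12v) libraries, 21.5 and 25.2 CPM in EV libraries, 23 and 22.5 CPM in Dox+ libraries and 21.1 and 20.8 CPM in Dox- libraries, high in HRAS(G12v) libraries and alike in the other 6 (2.19 ± 0.19, edgeR adjusted p = 4.91e-06). CTSL, cathepsin L, and NEU1, a sialidase, were called higher at 1.78 ± 0.18 and 1.53 ± 0.18, and GAA, acid glucosidase, lower at -1.67 ± 0.20.

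Of 20 NRF2 targets, 7 were called lower and 2 higher, with a median of -0.20. AKR1C1, a steroid reductase, had 10.6 and 8.24 CPM in HRAS(G12v) libraries, 11 and 10.2 CPM in EV libraries, 101 and 102 CPM in Dox+ libraries and 23.3 and 22.2 CPM in Dox- libraries, high in Dox+ libraries and lowest in HRAS(G12v) and EV (-2.33 ± 0.20, edgeR adjusted p = 4.62e-06); it shares 35.7% of its exon stretches with other genes, and its neighbour AKR1C2, at -2.68 ± 0.22, 48.2%. Of 21 genes of ATF4 and the unfolded-protein response, 6 were called lower and 3 higher, with a median of -0.10. Of all genes, 14% were called lower and 21.6% higher. DDIT4, an inhibitor of mTOR, was called lower at -1.80 ± 0.20 and VLDLR, a lipoprotein receptor, at -1.39 ± 0.19; with the repeat DDIT4 stood at 0.61.

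Markers of other cell types were called as well. Of 13 endothelial markers, 12 were called higher and 1 lower, with a median of 4.83. That median ran from 3.18, without the second HRAS(G12v) library, to 5.70, without the first. With the repeat it was 1.20, and 4 were called higher and 1 lower. The median response was 2.72 to HRAS(G12v), with 12 higher and 1 lower, and -1.85 to doxorubicin, with 2 higher and 9 lower. Between the treated cells 8 were higher and 1 lower in HRAS(G12v) than in Dox+ libraries, with a median gap of 2.23. Between the controls 1 was higher and 8 lower in EV than in Dox- libraries, with a median gap of -1.97. ROBO4, a receptor of endothelium, had 12 and 13.6 CPM in HRAS(G12v) libraries, 0.742 and 1.12 CPM in EV libraries, 0.111 and 0.152 CPM in Dox+ libraries and 0.536 and 0.641 CPM in Dox- libraries, with the HRAS(G12v) libraries above all others (5.92 ± 0.36, edgeR adjusted p = 2.85e-07). TIE1, an orphan receptor of endothelium, had 1.85 and 2.45 CPM in HRAS(G12v) libraries, 0.154 and 0.156 CPM in EV libraries, 0.089 and 0.128 CPM in Dox+ libraries and 0.857 and 1.4 CPM in Dox- libraries. Its Dox- libraries also stood above EV and Dox+ libraries, and its difference was 7.13 ± 0.49. MMRN1, multimerin of platelets and endothelium, had 0.428 and 6.81 CPM in HRAS(G12v) libraries, 0.645 and 0.433 CPM in EV libraries, 0.949 and 0.59 CPM in Dox+ libraries and 6.89 and 10.6 CPM in Dox- libraries; the HRAS(G12v) replicates disagreed, and its difference of 6.24 ± 1.17 was 7.17 without the first and 3.18 without the second, and 0.86, no longer called, with the repeat. TEK, the angiopoietin receptor, was the marker called lower, with 9.94 and 9.92 CPM in HRAS(G12v) libraries, 67.2 and 61.3 CPM in EV libraries, 237 and 223 CPM in Dox+ libraries and 92.5 and 93.4 CPM in Dox- libraries (-4.00 ± 0.17, edgeR adjusted p = 2.66e-08). Of 11 epithelial markers 3 were called higher and 2 lower, beside 21.6% and 14% of all genes, and the 7 leukocyte markers did not pass.

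The remaining genes with the highest differences were of varied kinds. TAGLN3, a neuronal calponin-like protein, had 240 and 227 CPM in HRAS(G12v) libraries, 0.651 and 1.02 CPM in EV libraries, 0.46 and 0.642 CPM in Dox+ libraries and 0.69 and 0.665 CPM in Dox- libraries, high in HRAS(G12v) and under 2 CPM in all other libraries (8.43 ± 0.31, edgeR adjusted p = 1.2e-08). LINC01705, a long noncoding RNA, had 48.9 and 47.1 CPM in HRAS(G12v) libraries, 0.0685 and 0.114 CPM in EV libraries, 0.371 and 0.257 CPM in Dox+ libraries and 0.16 and 0.174 CPM in Dox- libraries, with the same pattern (8.17 ± 0.39, edgeR adjusted p = 5.43e-08). ESM1, a secreted proteoglycan of endothelium, had 26.9 and 23.3 CPM in HRAS(G12v) libraries, 0.28 and 0.213 CPM in EV libraries, 0.942 and 0.806 CPM in Dox+ libraries and 1.92 and 2.18 CPM in Dox- libraries, with EV lowest (7.88 ± 0.28, edgeR adjusted p = 9.02e-09). NTNG1, netrin-G1, was called higher at 7.31 ± 0.26, PRSS3, a trypsin, at 6.40 ± 0.28, and TMCC3 at 8.53 ± 0.54, which was 7.85 without the first and 9.48 without the second EV library. SPP1, osteopontin, had 5.11 and 4.34 CPM in HRAS(G12v) libraries, 0.0228 and 0.0284 CPM in EV libraries, 0.371 and 0.444 CPM in Dox+ libraries and 0.129 and 6.48 CPM in Dox- libraries; its Dox- libraries disagreed, and its difference of 10.51 ± 1.80 was 11.48 without the first and 5.85 without the second.

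Genes called lower with the largest gaps between the controls were read last. NEAT1, the RNA that forms paraspeckles, had 249 and 325 CPM in HRAS(G12v) libraries, 582 and 619 CPM in EV libraries, 244 and 252 CPM in Dox+ libraries and 137 and 115 CPM in Dox- libraries. HRAS(G12v) and Dox+ libraries overlapped and the EV libraries were highest, so its difference of -2.04 ± 0.21 (edgeR adjusted p = 1.83e-05) stood beside a direct gap of 0.21 ± 0.15 that did not pass. CYP1B1, an enzyme induced through the aryl hydrocarbon receptor, had 6.05 and 5.52 CPM in HRAS(G12v) libraries, 3.81 and 3.62 CPM in EV libraries, 170 and 182 CPM in Dox+ libraries and 21.8 and 20.3 CPM in Dox- libraries. Dox+ libraries stood far above the rest, and HRAS(G12v) and EV libraries were both below Dox-. Its gap between the controls, -2.50, had the sign of its direct gap, -4.93, with a difference of -2.43 ± 0.18 (edgeR adjusted p = 1.26e-06) that was -0.47 with the repeat. GPC5, a glypican, was called lower at -2.89 ± 0.31, and PCSK2, a prohormone convertase, at -6.20 ± 1.02, which ran from -5.10 to -10.52 when 1 library was left out. ADH1B, alcohol dehydrogenase, one of the 10 lowest differences, was called lower at -7.14 ± 0.48, and -7.97 without the first HRAS(G12v) library.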

How the data were processed

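The authors deposited whole-number read counts per gene for each library, not normalized. Tools listed in the submitters' processing notes are featureCounts, STAR 2.4, cutadapt and bcl2fastq, with hg19 as the genome build; their settings, the annotation and the use of strand are not stated. Per the labels' protocols, total RNA was freed of ribosomal RNA, and an Ovation kit (RNA-seq System V2) turned it into cDNA. Of 57773 gene identifiers, 51996 matched a table of names.

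The 8 libraries were fitted in edgeR 4.0.16 (R 4.3.3) with TMM scaling, filterByExpr and the quasi-likelihood test, Benjamini-Hochberg adjusted over 29380 genes. Each SE is the absolute log2 value divided by the square root of F. With 2 libraries a group, the 4 groups share 1 estimate of the spread. At 135085231 to 175530950 counts a library, replicates differed by more than sampling noise, with a chi-square of 19.3 to 128 per degree of freedom. Folds against a group at 0 use a floor of 3 counts per library, which covers counting error only.

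The comparison, the markers and the 33 gene lists were chosen with earlier results of these data known. Of the listed symbols, CCL3, CCL5, DDX58 and 7 histone genes are among those that matched none in the files. The 181 named genes are STC1, IL1B, COL3A1, CCL2 and HRAS; the 10 highest and 10 lowest called differences among genes whose log2 CPM averaged 1 or more; the 6 smallest adjusted p per side; the 6 largest with opposite responses; the 3 smallest adjusted p per list and side; RAS genes and CDK inhibitors; and the 4 per side with the largest gap between controls. Of these, 4 share at least 50% of their exon sequence with other genes, in stretches of 31 bases, and exons of 54 overlap a gene on the opposite strand and of 29 one on the same strand; their counts are uncertain. Some genes that the rule names are not reported here.

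The fit was tested on simulated counts before use. Alternatives were DESeq2 1.42.0 size factors and its Wald test, library totals, no filter, all 37 libraries in 1 fit, the replicate number as a block, a stricter threshold, a 2-fold minimum, the repeat experiment and each library left out. Promoter windows came from RefSeq (GRCh38.p14).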

Additional observations from a re-analysis of the deposited data

How the results depend on the processing

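The count of genes called higher in the difference was 4186 at an adjusted p below 0.01, 3886 with at least 2-fold and 3144 with the repeat experiment, and 4140 to 7926 with 1 library left out; the count called lower was 2571 below 0.01, and 6661 were lower in HRAS(G12v) than in Dox+ directly. For the HRAS response 4742 were called higher with library totals and 3900 with at least 2-fold. For the doxorubicin response 2630 were called higher with library totals, 2396 below 0.01 and 2194 with at least 2-fold, with 2277 to 5310 when 1 library was left out, and 2393 were called lower below 0.01, 1656 with at least 2-fold and 2101 to 5730 when 1 library was left out. A fit with the library left out takes the lone library of its group to vary like the other groups. Library totals moved the median of all genes by -0.103 in the difference, -0.276 in the HRAS response and -0.175 in the doxorubicin response; the fit of all 37 libraries moved it by -0.106 in the difference and -0.144 in the HRAS response.

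With the repeat experiment the sign of 21 named genes turned, and the cause was not tested: SPRY1 (0.035), CXCL1 (0.084), SOD2 (1.110), TNC (-0.835), ELN (-3.178), CDKN2C (-2.889), BBC3 (1.441), RRM2 (-1.724), TPX2 (-1.344), CENPF (-0.843), H1-5 (-1.824), H2BC11 (-3.036), H1-3 (-2.255), LMNB2 (-0.216), NCAPG (-1.795), OASL (-0.122), STC2 (0.248), DDIT4 (0.609), PHGDH (0.341), SREBF2 (0.789) and KRT19 (1.293). Also turned were the median difference of DNA replication (-1.287), the median difference of Mitosis (-1.822), the median difference of Replication-dependent histones (-2.560) and the median difference of Nuclear lamina and chromatin (-0.451), in an alternative chosen after seeing the data. Medians of lists with fewer calls also changed sign, to 0.08 for CXC chemokines, 0.43 for ATF4 and the unfolded-protein response and 0.84 for leukocyte markers. A further 30 named genes kept their sign and lost their call. Without 1 library CCL7 ran from -9.427 to 0.272. Calls of named genes were lost for 13 with all 37 libraries, 9 with library totals, 4 by the Wald test and 1 without the filter.

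The replicate numbers were not taken to pair the samples: the log2 difference between the replicates of a group correlated with that of another group at -0.019 to 0.094 across genes. With the replicate block 7041 genes were called higher and 4311 lower, and among named genes CDH1 (-2.463) lost its call. A gene that did not pass is not shown to respond alike.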
